A study of Sorghum bicolor with 4 samples.

Results

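The tips of sorghum chromosomes 5 and 8 are the chromosome ends that match the duplicated ends of rice chromosomes 11 and 12. Their genes were taken here as the table rows with exactly 1 Sobic identifier on chromosome 5 or 8 and a locus number under 060000, which places them at the low-numbered end of each chromosome. The rule gave 1081 genes of the 31423 rows with 1 identifier, 535 in the chromosome 5 tip and 546 in the chromosome 8 tip, and they were set against the other 1699 rows of chromosome 5 and 1313 rows of chromosome 8. The RNA came from the middle stem internode of the sweet sorghum line ICSA38, a sorghum type with a sugar-storing stalk, grown in an open field. It was sampled at physiological maturity (2 libraries) and at the earlier milky stage of grain filling, here called the milk stage (2 libraries). The labels do not say whether the libraries of a stage came from separate plants.

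As background, grasses descend from an ancestor whose whole genome was doubled, and most duplicated segments have since lost or changed many of their paired genes. The ends of rice chromosomes 11 and 12, and the matching ends in sorghum, are known for paired genes that have stayed unusually alike, which has been attributed to exchange of sequence between the copies. Where copies are near-identical, short sequencing reads can be assigned to either of them, so a value at one copy may hold reads of the other. In rice these chromosomes are also known for many disease resistance genes. The table gives identifiers with no gene names, 0 of the 1081 members matched the reference gene table, and no sequence of the members was used. Members are therefore given by identifier, with no role and with no pairing between the tips.

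The deposited values are FPKM, fragments scaled to locus length and to mapped fragments, with 1 value per locus and stage taken from the headings to combine the libraries of that stage. They carry no error. No comparison below therefore has a test, the spread between the libraries of a stage is unknown, and so is the number of fragments behind each value. All 6 genes fixed as markers of a lignifying, sugar-moving stem (Bmr2, Bmr6, Bmr12, SUT1, SWEET8A and TST2) were present, at 59.9 to 997 FPKM at maturity and 41.1 to 463 FPKM at the milk stage.

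Most tip genes stayed under 1 FPKM in the internode. On chromosome 5, 217 of 535 tip members (40.6%) reached 1 FPKM at either stage, a further 153 (28.6%) had a value above 0 that stayed under 1 FPKM at both stages, and 165 (30.8%) were listed at 0 at both. On chromosome 8, 262 of 546 tip members (48.0%) reached 1 FPKM, 146 (26.7%) stayed below it and 138 (25.3%) were listed at 0 at both stages. The share that reached 1 FPKM was 33.0% in the rest of chromosome 5 and 45.4% in the rest of chromosome 8, so each tip lay above the rest of its own chromosome, the chromosome 5 tip by the wider margin. Over all rows with 1 identifier the share was 52.7%.

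The same low-numbered stretch of the other 8 chromosomes gave shares from 44.0% (chromosome 6) to 67.3% (chromosome 1). The chromosome 5 tip lay below all 8 of them in its share at 1 FPKM, and its 30.8% of members listed at 0 was above all 8, of which chromosome 6 was highest at 30.03%. The chromosome 8 tip was inside both ranges. At the opposite end of the chromosomes, the last 535 rows of chromosome 5 had 28.8% at 1 FPKM and the last 546 rows of chromosome 8 had 43.2%, both lower than the tip of the same chromosome.

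The tips differed in how expression was spread along them. In windows of 10000 locus numbers, the share of rows at 1 FPKM in the chromosome 8 tip was nearly level, from 46.0% to 49.5% over its 6 windows. In the chromosome 5 tip it ran from 50.5% in the third window to 31.6% in the sixth, where 44.7% of the rows were listed at 0. Outside the tips, windows with at least 20 compared rows spanned 22.4% to 42.0% on chromosome 5 and 34.7% to 57.4% on chromosome 8. The second and the third window of the chromosome 5 tip (45.2% and 50.5%) had the highest shares of that chromosome. At the limit of the rule, the last window inside and the first outside had 31.6% and 39.4% on chromosome 5, and 49.5% and 51.0% on chromosome 8.

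**Figure D1:**
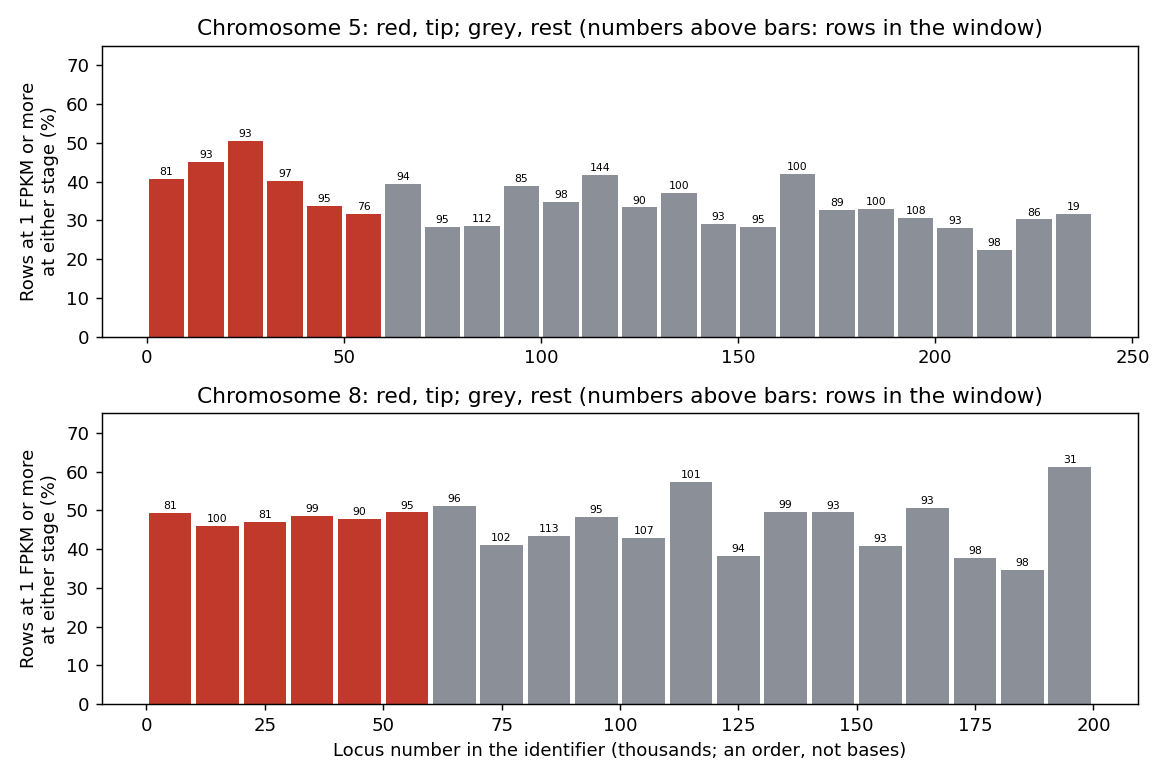
Share of rows with 1 identifier at 1 FPKM or more at either stage (vertical axis, percent) by window of locus number along chromosomes 5 (upper) and 8 (lower), with tip windows in red, the rest in grey and the number of rows above each bar. Tip bars on chromosome 8 lie between 46.0% and 49.5%, and those on chromosome 5 between 31.6% and 50.5%.

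Among members that reached 1 FPKM, levels in the tips were lower than in the matching stretch of the other chromosomes. The median of the compared members was 9.10 FPKM at maturity and 8.42 FPKM at the milk stage in the chromosome 5 tip, and 8.41 FPKM at maturity and 7.40 FPKM at the milk stage in the chromosome 8 tip. The medians in the same stretch of the other 8 chromosomes ran from 9.79 to 14.3 FPKM at maturity and from 8.62 to 15.3 FPKM at the milk stage, so both tips lay below all 8 at both stages. Within their own chromosomes they did not both stand low. The rest of chromosome 5 had medians of 8.01 FPKM at maturity and 7.29 FPKM at the milk stage, below its tip, and the rest of chromosome 8 had 9.86 FPKM at maturity and 9.25 FPKM at the milk stage, above its tip. These medians are over members that passed the filter, not over all members.

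An FPKM of 100 or more at either stage was reached by 18 members (3.36%) of the chromosome 5 tip and 16 (2.93%) of the chromosome 8 tip, against 4.68% of all rows with 1 identifier. The share was 2.00% in the rest of chromosome 5, below its tip, and 3.12% in the rest of chromosome 8, close to its tip. The 10 most abundant members held 39.6% of the chromosome 5 tip's FPKM sum at maturity and 37.5% at the milk stage. In the chromosome 8 tip they held 53.3% at maturity and 46.0% at the milk stage.

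The most abundant member of either tip was Sobic.008G033200, at 1679 FPKM at maturity and 850 FPKM at the milk stage, a ratio of 1.97. Next in the chromosome 8 tip came Sobic.008G030600, at 912 FPKM at maturity and 262 FPKM at the milk stage, a ratio of 3.48. The third, Sobic.008G047000, went the other way, with 373 FPKM at maturity and 544 FPKM at the milk stage. The chromosome 5 member with the highest mean was Sobic.005G055000, at 343 FPKM at maturity and 570 FPKM at the milk stage. Sobic.005G050200 had 670 FPKM at maturity and 166 FPKM at the milk stage, a ratio of 4.03. Sobic.005G016900 had 199 FPKM at maturity and 407 FPKM at the milk stage. Of these 6 abundant members, 3 were thus higher and 3 lower at maturity, and the higher ones included both of the leading pair on chromosome 8.

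The stage ratio of the chromosome 8 tip's total moved with that leading pair. Its FPKM sum was 8698 at maturity and 7410 at the milk stage, a ratio of 1.17. Without Sobic.008G033200 and Sobic.008G030600 the sums were 6106 at maturity and 6297 at the milk stage, a ratio of 0.970. The chromosome 5 tip summed to 6100 FPKM at maturity and 6458 FPKM at the milk stage, a ratio of 0.945, and to 5087 FPKM at maturity and 5721 FPKM at the milk stage without its leading pair, Sobic.005G055000 and Sobic.005G050200. For comparison, the ratio was 0.990 in the rest of chromosome 5, 0.957 in the rest of chromosome 8 and 0.825 over all rows with 1 identifier. It ran from 0.530 to 1.06 in the same stretch of the other 8 chromosomes. These ratios depend on the scaling between stages, since the sum of the whole table was itself lower at maturity. As a part of that whole sum, the chromosome 5 tip held 0.915% at maturity and 0.806% at the milk stage, and the chromosome 8 tip 1.30% at maturity and 0.925% at the milk stage. The ratio of the chromosome 5 tip was 1.13 with equal sums and 1.05 with quantile normalization, so its direction is not fixed by these data. Nor is that of the chromosome 8 tip without its leading pair, whose ratio was 1.16 with equal sums, 1.07 with quantile normalization and 0.945 with median-of-ratios scaling.

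Differences between the stages were taken on the log2 scale as maturity minus milk stage, after adding 1 to each FPKM, for rows at 1 FPKM or more at either stage. Adding 1 understates the difference of low loci, and a difference of at least 1 (2-fold) was counted. On chromosome 5, 24 of 217 compared tip members (11.1%) had values at maturity at least 2-fold higher and 23 (10.6%) at least 2-fold lower. On chromosome 8, 35 of 262 (13.4%) were at least 2-fold higher and 23 (8.78%) at least 2-fold lower. Over all 16568 compared rows with 1 identifier, 11.3% were at least 2-fold higher and 10.7% at least 2-fold lower. The chromosome 5 tip was therefore at the background in both directions, and the chromosome 8 tip was a little above it in the upward and below it in the downward direction.

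The chromosome 5 tip did not share the upward lean of the rest of its chromosome. In the rest of chromosome 5, 97 of 561 compared rows (17.3%) were higher by that limit and 65 (11.6%) lower. The median log2 difference was 0.02 in the tip and 0.18 in the rest of chromosome 5. The tip's share of higher members was below that of the rest of chromosome 5 in 11 of 12 alternative settings. The exception was a 4-fold limit, where it was 3.23% in the tip and 2.85% in the rest. For lower members the tip was below in 9 of 12. The chromosome 8 tip was below its rest in 8 of 12 settings for higher members and 7 of 12 for lower ones. All settings reuse the same values, so they are not independent of each other. On chromosome 8 the tip and the rest were closer, with 87 of the 596 compared rows of the rest (14.6%) higher and 54 (9.06%) lower, and with medians of 0.14 in the tip and 0.05 in the rest. Whether either gap between a tip and its chromosome exceeds the spread between libraries was not tested. In the same stretch of the other 8 chromosomes, 8.33% to 13.2% of compared rows were higher and 7.75% to 13.9% lower. The chromosome 5 tip was inside both ranges, while the chromosome 8 tip's share of higher members was just above the first of them.

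**Figure D2:**
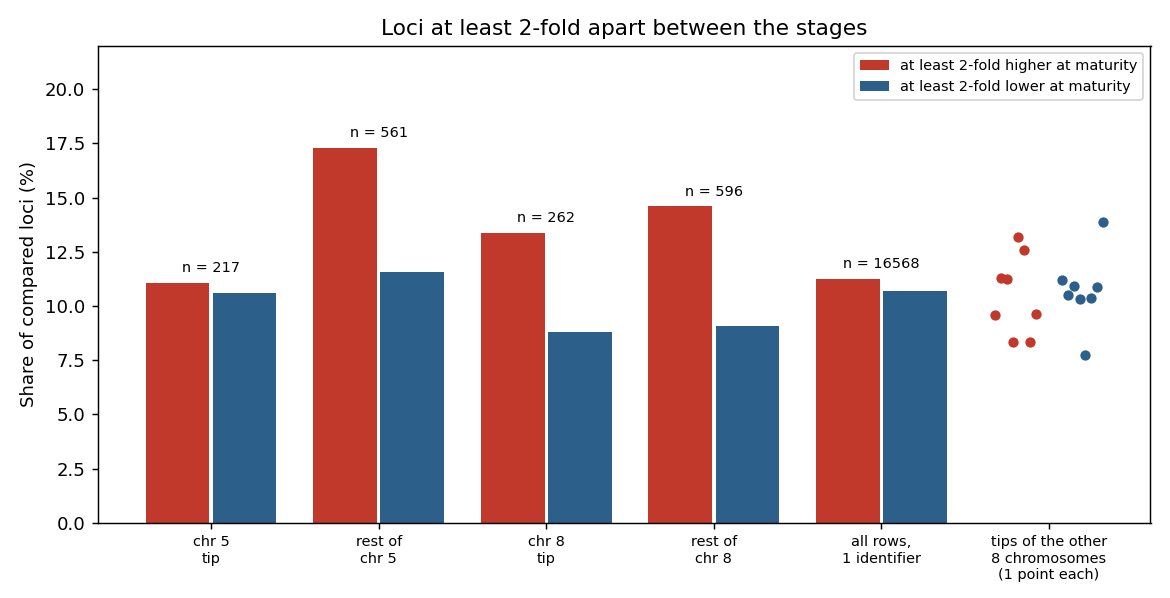
Share of compared loci (vertical axis, percent) at least 2-fold higher (red) or lower (blue) at maturity in each tip, in the rest of each chromosome and over all rows with 1 identifier, with 1 point per chromosome for the matching stretch of the other 8. The rest of chromosome 5 has the tallest red bar, 17.3%, against 11.1% in its tip.

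Differences of at least 4-fold were few. At least 4-fold higher values were found in 7 members of the chromosome 5 tip (3.23%) and 8 of the chromosome 8 tip (3.05%), against a background of 2.18%. At least 4-fold lower values were found in 4 members (1.84%) of the chromosome 5 tip and 6 (2.29%) of the chromosome 8 tip, against 2.24%. The rest of these chromosomes was close to the tips. It had 2.85% higher and 1.60% lower on chromosome 5, and 3.02% higher and 2.52% lower on chromosome 8. Some members reached 1 FPKM at 1 stage alone. On chromosome 5, 15 tip members (2.80%) reached 1 FPKM at maturity alone and 7 (1.31%) at the milk stage alone. For the chromosome 8 tip these numbers were 21 (3.85%) at maturity alone and 14 (2.56%) at the milk stage alone. Over all rows with 1 identifier they were 1089 (3.47%) at maturity alone and 888 (2.83%) at the milk stage alone. The chromosome 5 tip was thus below all rows in both shares. The chromosome 8 tip was above at maturity and below at the milk stage. These are shares of all members, of which 40.6% reached 1 FPKM in the chromosome 5 tip and 52.7% over all rows. The rest of each chromosome leaned the same way between stages. There, 59 rows reached it at maturity alone and 25 at the milk stage alone on chromosome 5. On chromosome 8 these were 42 at maturity and 28 at the milk stage.

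The individual members with the largest differences came from several levels of abundance. On chromosome 5, Sobic.005G037300 was at 104 FPKM at maturity and 7.70 FPKM at the milk stage, 13.5-fold higher as a plain ratio, and was the largest increase on the log2 scale at 3.59. Sobic.005G011200 was at 8.84 FPKM at maturity and 0.0365 FPKM at the milk stage, a log2 difference of 3.25. The milk-stage value of the second is so low that its plain ratio has no firm size, while the first was well above 1 FPKM at both stages. The largest decreases there were Sobic.005G052900, at 0.381 FPKM at maturity and 7.21 FPKM at the milk stage, and Sobic.005G029200, at 0.479 FPKM at maturity and 6.46 FPKM at the milk stage. Both decreases thus ended under 1 FPKM.

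In the chromosome 8 tip the largest decrease was larger than any in the chromosome 5 tip. Sobic.008G034300 was at 1.37 FPKM at maturity and 46.1 FPKM at the milk stage, a log2 difference of -4.31 and a 33.6-fold lower value as a plain ratio. Sobic.008G025800 was listed at 0 at maturity and had 9.74 FPKM at the milk stage. It was 1 of 2 members of that tip listed at 0 at maturity with at least 1 FPKM at the milk stage. No member of either tip was listed at 0 at the milk stage with at least 1 FPKM at maturity. These counts were not made over all rows, so whether they are particular to the tips is unknown. The largest increases were Sobic.008G019466, at 10.95 FPKM at maturity and 0.829 FPKM at the milk stage, and Sobic.008G036000, at 19.4 FPKM at maturity and 2.23 FPKM at the milk stage.

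**Figure D3:**
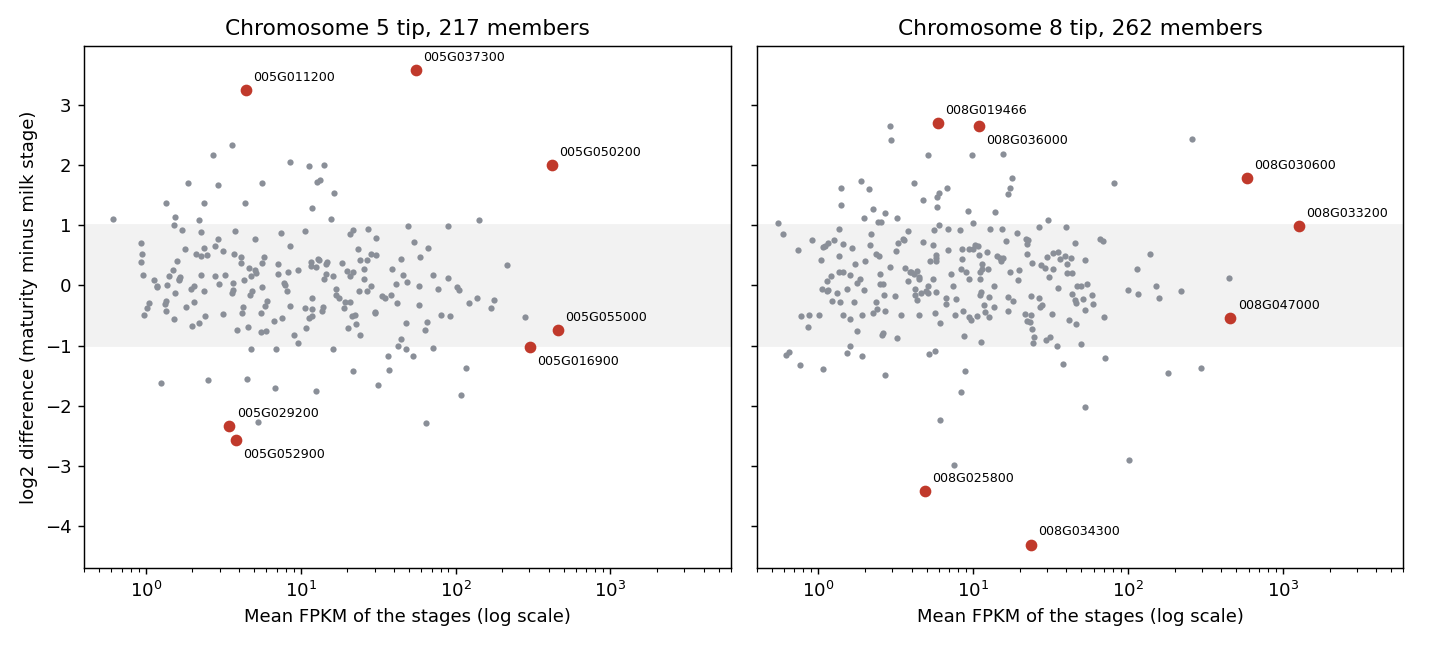
Log2 difference of maturity minus milk stage (vertical axis) against mean FPKM of the stages (horizontal axis, log scale) for the compared members of the chromosome 5 tip (left, 217) and the chromosome 8 tip (right, 262). The members named by rule are red, the band marks differences under 2-fold, and Sobic.008G034300 lies lowest at -4.31.

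Differences varied along the tips. In the first window of chromosome 8, 6 of 40 compared members were higher by at least 2-fold at maturity and 1 lower, with a median log2 difference of 0.48, the highest of the 6 windows in that tip. The fourth window of chromosome 8, with 48 compared members, held 10 of the tip's 35 higher members, with 5 lower. The third window had 6 higher and 7 lower of 38. The third window of chromosome 5, the most widely expressed of that tip, had 1 higher and 6 lower members of 47 and a median of -0.09. Another pair of windows there, from locus numbers 10000 and 40000, held 8 higher and 4 lower members of 42, and 7 higher and 3 lower of 32. Among all compared rows with 1 identifier, 11.3% were higher and 10.7% lower. Each window count rests on few members, and whether any window departs from these shares was not tested. Window medians lay between -0.09 and 0.18 in the chromosome 5 tip and between -0.05 and 0.48 in the chromosome 8 tip. Outside the tips, windows with at least 20 compared rows spanned -0.32 to 0.73 on chromosome 5 and -0.18 to 0.35 on chromosome 8.

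**Figure D4:**
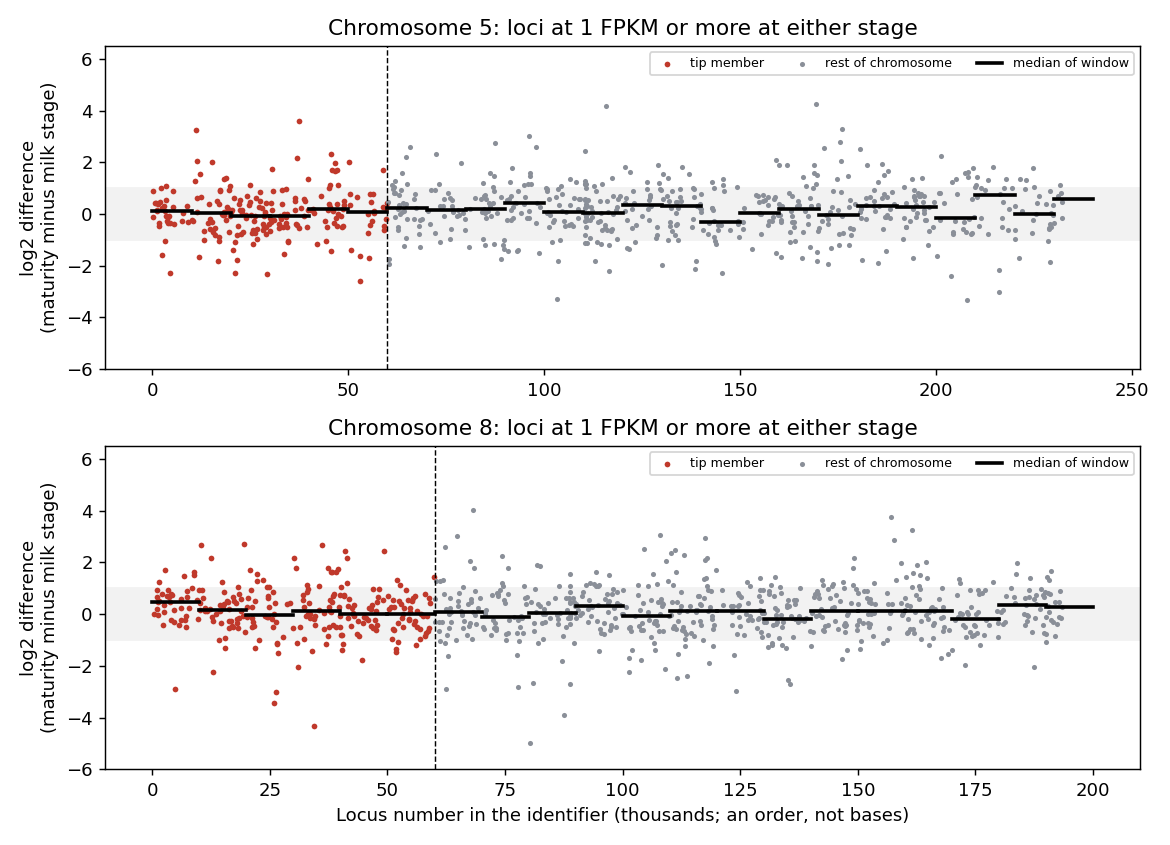
Log2 difference of maturity minus milk stage (vertical axis) for each compared locus by locus number (horizontal axis) on chromosomes 5 and 8, with tip members in red left of the dashed line and black bars for window medians. Tip medians stay between -0.09 and 0.48, and the widest window medians lie outside the tip on chromosome 5.

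The rows on either side of the limit were mostly listed at 0. The last member inside, Sobic.005G059900, and the first row outside, Sobic.005G060000, were listed at 0 at both stages. On chromosome 8 the last member, Sobic.008G059900, was at 7.33 FPKM at maturity and 2.12 FPKM at the milk stage, and the first row outside, Sobic.008G060050, was listed at 0 at both.

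Neighbouring members were also compared. Of 216 pairs next to each other in the order of compared members of the chromosome 5 tip, 4 had both members at least 2-fold higher at maturity, 4 had both lower and 3 had opposite directions. Of 261 such pairs in the chromosome 8 tip, 7 were both higher, 6 both lower and 6 opposite. In the rest of chromosome 5, 18 of 560 pairs were both higher, 11 both lower and 17 opposite. In the rest of chromosome 8, 22 of 595 were both higher, 6 both lower and 11 opposite. No such count was made over all rows. Whether these numbers differ from what the shares of single loci would give was not tested. Neighbouring loci may share reads, whose part in these counts was not tested.

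When members were grouped by mean FPKM, the tips held few higher members at 20 to 100 FPKM. There, 3 of 120 tip members (2.50%) were higher at maturity by the 2-fold limit and 14 (11.7%) lower. In the rest of chromosomes 5 and 8, 36 of 303 rows (11.9%) were higher and 30 (9.90%) lower, and over all rows with 1 identifier 8.74% were higher and 11.2% lower. The share of higher members was low in both tips, at 1 of 60 on chromosome 5 and 2 of 60 on chromosome 8. This range was singled out after its values were seen, and its split moved with scaling. With equal sums, which shifted the median of all compared rows up by 0.24, 12.5% of the tip members in the range were higher, against 17.5% in the rest of both chromosomes and 14.6% over all rows. With quantile normalization the higher share was 5.0% in the tips, 11.6% in the rest and 9.81% over all rows, and with median-of-ratios scaling 2.50% in the tips, 10.9% in the rest and 8.32% over all rows.

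Below that range the tips looked like their chromosomes in the upward direction. At 1 to 5 FPKM, 25 of 163 tip members (15.3%) were higher and 12 (7.36%) lower, against 16.6% higher and 10.2% lower of 373 rows in the rest. All rows with 1 identifier had 13.4% higher and 9.71% lower there. At 5 to 20 FPKM, 25 of 151 tip members (16.6%) were higher and 11 (7.28%) lower, against 17.3% higher and 11.2% lower of 376 rows in the rest. For all rows with 1 identifier these shares were 12.7% higher and 9.15% lower. Taken apart, the tips went opposite ways against their own chromosomes at 5 to 20 FPKM. Higher members were 9 of 64 (14.1%) in the chromosome 5 tip, against 20.3% of 187 rows in the rest of chromosome 5. In the chromosome 8 tip they were 16 of 87 (18.4%), against 14.3% of 189 rows in the rest of chromosome 8. At 100 FPKM and above, 4 of 29 tip members were higher and 6 (20.7%) lower, against 9 higher and 5 (8.77%) lower of 57 in the rest. Over all rows with 1 identifier, 6.60% were higher and 18.8% lower in that range.

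**Figure D5:**
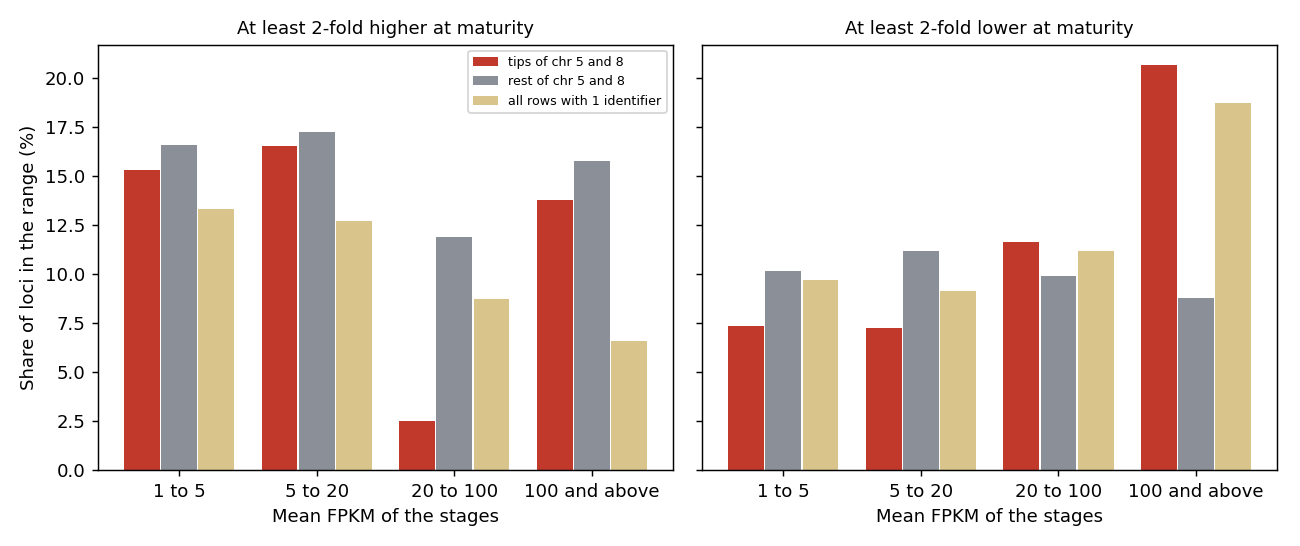
Share of loci (vertical axis, percent) at least 2-fold higher (left) or lower (right) at maturity by range of mean FPKM, for the tips of chromosomes 5 and 8 (red), the rest of those chromosomes (grey) and all rows with 1 identifier (sand). At 20 to 100 FPKM the red bar for higher loci stands at 2.50%, against 11.9% in the rest.

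The rule leaves out rows that combine several identifiers. All identifiers lay in the chromosome 5 tip in 24 such rows and in the chromosome 8 tip in 30. Of the 21 compared in the chromosome 5 tip, 2 were higher by at least 2-fold at maturity and 1 lower, and of the 28 in the chromosome 8 tip, 5 were higher and 1 lower. A value of these rows cannot be assigned to any of their genes. Nearly all compared members sat in a row keyed to an assembled locus rather than to the annotated gene alone, 217 of 217 in the chromosome 5 tip and 260 of 262 in the chromosome 8 tip, against 310 of 535 and 326 of 546 over all members of those tips. The table as a whole was alike, at 99.7% of compared rows and 66.1% of all rows with 1 identifier.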

How the data were processed

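Stem RNA libraries of ICSA38 at physiological maturity and at the milk stage were made from total RNA with a stranded kit, per the labels' protocols. The tools were HISAT2 2.0.5, Bowtie2 2.2.9, cutadapt 1.8.1 and Cuffdiff, per the submitters' processing notes, which give no role for each. No source used here gives the genome build, the strand setting or the handling of reads that map to several places. The deposited table holds FPKM computed by the authors, 1 value per locus and stage, so the planned test over libraries was not run and differences are described by size. From the FPKM, log2 differences (pseudocount 1, minimum 1 FPKM at either stage, 2-fold limit) were computed over the whole table, with the calculation tested on simulated data. Alternatives were pseudocounts of 0.1 and 0.5, no minimum or 5 FPKM, 3 other scalings, a 4-fold limit, other tip limits, added rows with several identifiers and, added after seeing the data, assembled loci alone, sums without 2 members and ranges of mean FPKM. Named members were, per tip, the 2 largest increases, the 2 largest decreases and the 3 highest means; others were chosen after their values were seen. The members and lists were chosen with earlier results of these data known. Pairing of copies by protein sequence and the keyword gene lists could not be made, since no protein table was used and 0 members matched the reference. Python 3.11.15, numpy 2.4.6, pandas 2.3.3, statsmodels 0.14.6 and matplotlib 3.10.9 were used.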

Additional observations from a re-analysis of the deposited data

How the results depend on the processing

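Of 144 alternative values for the tips and the rest of their chromosomes, 104 stayed within set bounds. Another 37 moved further, and 3 turned the direction of an FPKM sum. The bounds were the 95% binomial (Wilson) interval of the reported share, or 0.1 (log2) around the reported median or ratio. That interval treats loci as independent, which they are not, and narrows with more loci. The tally is therefore a rough guide to size and does not measure the spread between libraries. With equal sums, 16.0% of the chromosome 5 tip, 19.5% of the chromosome 8 tip, 23.8% of the rest of chromosome 5 and 21.1% of the rest of chromosome 8 were at least 2-fold higher at maturity; 6.39% of the chromosome 5 tip, 7.30% of the rest of chromosome 5 and 6.15% of the rest of chromosome 8 were at least 2-fold lower. The tip medians were then 0.24 and 0.36. With a pseudocount of 0.1, 20.2% of the chromosome 8 tip, 23.7% of the rest of chromosome 5 and 19.6% of the rest of chromosome 8 were higher, and 12.4% of the rest of chromosome 8 lower; with 0.5, 21.9% of the rest of chromosome 5 were higher. Without the minimum, unexpressed rows enter the denominator and no row is added to the counts: shares higher were 4.49%, 6.41%, 5.71% and 6.63%, and shares lower 4.30%, 4.21%, 3.83% and 4.11% (chromosome 5 tip, chromosome 8 tip, rest of 5, rest of 8), with a chromosome 8 tip median of 0. A 4-fold limit left 3.23%, 3.05%, 2.85% and 3.02% higher and 1.84%, 2.29%, 1.60% and 2.52% lower in that order. Counting expression from 0.1 FPKM gave 56.6% and 61.9% of the members of the tips of chromosomes 5 and 8, and from 5 FPKM 28.6% and 31.3%. The FPKM sum ratio of the chromosome 5 tip turned to 1.13 with equal sums and 1.05 with quantile normalization, and that of the chromosome 8 tip was 1.41 and 1.45 under those scalings and turned to 0.970 without its leading pair. Tip limits of 040000, 050000 and 070000 moved no share or median past these bounds. Nor did a minimum of 5 FPKM for compared rows or added rows with several identifiers. Assembled loci alone could hardly move a value, since that setting kept 217 of 217 compared members of the chromosome 5 tip and 260 of 262 of the chromosome 8 tip. The median of the chromosome 5 tip, near 0 as reported, was -0.07 with the minimum of 5 FPKM and -0.03 with the limit of 040000. It was also just negative with quantile normalization (-0.0031) and median-of-ratios scaling (-0.0064). No paired analysis was possible because the libraries of a stage share 1 value, and none of them could be left out. Members under 1 FPKM are the least firm, since the depth behind them is unknown.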

Other observations

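Some members with large differences carry nearby, though not equal, locus numbers in the tips. Sobic.005G004500 was at 21.1 FPKM at maturity and 107 FPKM at the milk stage, and Sobic.008G004800 was at 22.9 FPKM at maturity and 179 FPKM at the milk stage, both lower at maturity. Sobic.005G050200 was at 670 FPKM at maturity and 166 FPKM at the milk stage, and Sobic.008G049200 was at 435 FPKM at maturity and 79.9 FPKM at the milk stage, both higher at maturity. Members with the very same numbers did not reach a 2-fold difference. Sobic.008G004500 and Sobic.005G049200 were listed at 0 at both stages. Sobic.008G050200 was at 4.28 FPKM at maturity and 2.24 FPKM at the milk stage, higher at maturity by a log2 difference of 0.70. No chromosome 5 member carries the number of Sobic.008G004800. Locus numbers give an order within a chromosome, not a position shared by the tips. The members with large differences were picked after their values were seen, and no sequence was used. Whether they are copies of each other, or share reads, was not tested.

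Some neighbours within the chromosome 5 tip differed in the same direction. Sobic.005G011300 was at 14.4 FPKM at maturity and 2.71 FPKM at the milk stage, next in number to Sobic.005G011200. Sobic.005G016800 was at 47.4 FPKM at maturity and 171 FPKM at the milk stage, next to Sobic.005G016900. They were likewise picked after their values were seen.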
